A study of Mus musculus with 28 samples.

Results

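H3K9ac regions that were shared by PD-1-sensitive cells and by resistant cells with a hairpin against Fabp7, and that were missing from resistant cells without that hairpin, are described here. Overlapping peaks of the 12 H3K9ac lists were merged into 20543 regions, and regions were selected on peak presence: a region was kept where all 3 Sen and all 3 Res_shFabp7 libraries had a peak and 0 of the 6 Res and Res_Ctrl libraries had one. 226 regions met this rule. That contrast between groups in H3K9ac peak presence is therefore a description with no test.

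The cells were mouse lung adenocarcinoma cells in culture. Sen were labelled PD-1-sensitive and Res PD-1-resistant, after an inhibitory receptor of T cells, both with the genotype wild-type. The Res libraries alone are described as coming from cells treated with PD-1 inhibitors, so what sets Res apart cannot be told apart from that treatment. Res_Ctrl were resistant cells with the genotype given as control, and Res_shFabp7 were resistant cells with knockdown of Fabp7, a fatty acid binding protein, by a short hairpin RNA. All but Sen therefore share the resistant background. Each group had 3 libraries for each of 2 marks, called biological replicates in the labels. Nothing in the labels says whether they were separate cultures or clones, so p-values measure the spread between these libraries. Chromatin immunoprecipitation also cannot tell apart more cells that carry a mark and more of the mark per cell. The title of the series concerns ferroptosis, cell death through lipid peroxidation. The regions here address which acetylated sites the knockdown cells have in common with sensitive cells.

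Acetylation of histone tails loosens chromatin and is read by bromodomain proteins. H3K9ac, on lysine 9 of histone H3, sits mainly at the starts of transcribed genes, and H3K27ac, on lysine 27, marks active promoters and active enhancers alike.

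Each H3K9ac list held between 11771 and 18317 peaks with 2.57 to 11.5 M tags, and each H3K27ac list between 15856 and 28934 peaks with 2.24 to 10.5 M tags. The numbers of H3K9ac peaks went the same way as the rule: 16100 ± 435 in Sen and 17485 ± 900 in Res_shFabp7, against 13347 ± 584 in Res and 13700 ± 2280 in Res_Ctrl (mean ± SD, n = 3). The rule was therefore also applied to the same number of peaks from each list, with the result given further on. The third Res_Ctrl library, with 16217 peaks, stood apart from the other 2 of its group and had the size of a Sen list. Sen 2 and Sen 3 held more H3K9ac tags (10.2 and 11.5 M) than any other library. Of 12 epithelial and lung markers, 7 had an H3K9ac peak at the gene, among them Cdh1, Krt8, Krt18, Krt19 and Sftpc in all 12 libraries, while Nkx2-1, Napsa, Cldn4 and Cldn7 had none of either mark. Epcam, counted among the 7, had an H3K9ac peak in 4 libraries, with 0 of 3 in Sen. Of the defining markers of immune cells 1 of 6 (Cd68), of endothelium 0 of 3 and of fibroblasts 1 of 5 (Col1a1) had an H3K9ac peak. With H3K27ac the counts were 8 of 12 epithelial and lung markers, 1 of 6, 0 of 3 and 3 of 5. Besides Col1a1, Col1a2 had H3K27ac in the 3 Res libraries alone and Dcn in 1 Res library.

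Of the 226 regions 35 covered a promoter, defined as 250 bases before to 50 bases after an annotated start. The promoters of 4 genes are shown because they span a wide range of CG content, from a start with no CG dinucleotide to one with 23. Each sequence below is the 250 bases upstream of the start, read 5′ to 3′ on the strand of the gene, from RefSeq on GRCm38.p6 (mm10); capitals mark CG dinucleotides.
Ugt2b34, chr5:86906938-86907187, minus strand: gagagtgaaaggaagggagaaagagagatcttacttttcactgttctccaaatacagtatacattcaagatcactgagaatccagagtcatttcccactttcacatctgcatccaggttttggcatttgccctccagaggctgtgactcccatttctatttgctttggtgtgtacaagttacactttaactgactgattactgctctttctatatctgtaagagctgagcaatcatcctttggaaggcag
Apob, chr12:7977427-7977676, plus strand: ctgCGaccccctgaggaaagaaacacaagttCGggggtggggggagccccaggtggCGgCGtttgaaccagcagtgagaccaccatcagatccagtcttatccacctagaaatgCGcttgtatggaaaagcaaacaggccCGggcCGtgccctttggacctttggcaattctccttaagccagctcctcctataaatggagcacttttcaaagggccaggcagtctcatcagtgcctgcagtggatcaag
Chst15, chr7:132317229-132317478, minus strand: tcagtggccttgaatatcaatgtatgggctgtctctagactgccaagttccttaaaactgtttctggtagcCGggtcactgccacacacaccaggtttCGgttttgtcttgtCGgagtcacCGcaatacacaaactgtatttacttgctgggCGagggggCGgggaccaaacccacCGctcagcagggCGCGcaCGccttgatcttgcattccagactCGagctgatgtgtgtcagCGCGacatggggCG
Ogfod2, chr5:124112071-124112320, plus strand: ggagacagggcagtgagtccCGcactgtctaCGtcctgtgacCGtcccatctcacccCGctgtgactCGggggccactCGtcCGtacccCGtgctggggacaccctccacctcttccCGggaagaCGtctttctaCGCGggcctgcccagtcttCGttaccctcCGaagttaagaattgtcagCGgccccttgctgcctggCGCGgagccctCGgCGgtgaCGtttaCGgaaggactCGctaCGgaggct
The upstream sequence of Ugt2b34 held 0 CG and 41.6% G and C. That of Apob held 7 CG, 55.2% G and C and 1 match to TATAAA. Chst15 held 14 CG and 1 match to GGGCGG, and Ogfod2 held 23 CG and 64.4% G and C. Over the 43 promoter windows of 40 genes inside the regions the median was 6 CG, the same as over all 32851 windows of the table and below the 18 of the 10412 windows in regions with an H3K9ac peak in all 12 libraries. 10 or more CG were found in 39.5% of the 43 windows, 82.3% of the 10412 and 37.8% of all. The 6 short motifs below were searched on both strands. TATAAA was in 16.3% of the 43 windows (7 windows), 5.23% of those with a peak everywhere and 12.4% of all. CACGTG, an E-box, was in 11.6%, 8.80% and 6.02%. GGGCGG, a GC box, was in 46.5%, 63.1% and 32.7%. AGGTCA was in 9.30%, 9.43% and 14.0%, TGACTCA in 2.33%, 2.90% and 4.46%, and TGTTTAC in 2.33%, 2.13% and 3.17%. With 43 windows these shares are descriptions of few sequences, and a match is not a binding site.

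Most of the regions lay away from gene starts, as did those of 3 other sets that lacked a peak in some groups. 15.5% covered a promoter, against 44.0% of all H3K9ac regions and 71.2% of the 10149 with a peak in all 12 libraries. The share was 18.1% of the regions with a peak in all groups but Res, 17.6% of those in Sen alone and 6.27% of those in Res_shFabp7 alone. Inside a gene, between its outer annotated ends, were 98 regions, and 93 lay between genes. Exons and introns cannot be told apart from the annotation used. Starts are those of the promoter table, which lacks some genes, so promoters are undercounted in every set. The median distance to the nearest listed start was 14095 bases, against 4246 bases over all regions and 14733.5 bases over those in all groups but Res, and the median width was 2417 bases (1188 to 5502). They were spread over 218 loci, since 16 of them formed 8 pairs within 100 kb, at Paqr8, Camsap2 and Ddx59, Clic6, Hs2st1 and Selenof, Adipor2 and Cacna2d4, Cadm4 and Irgc1, Slco2a1 and Tgfbr2. Regions of a pair share their locus and are not independent.

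The other patterns put the number in place. A peak in Sen alone was found in 204 regions, in Res_shFabp7 alone in 271, in Res alone in 154 and in all groups but Res in 360. The reverse of the rule, a peak in all Res and Res_Ctrl libraries and in no Sen or Res_shFabp7 library, was met by 1 region.

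Most of the regions were weak H3K9ac sites. The caller scores a peak by the log10 of its p-value multiplied by -10, and lists end at 50, a p of 1e-05. The median score at the regions ran from 93.9 in Res_shFabp7 1 to 141 in Res_shFabp7 2, while the median over all peaks of the same 6 lists ran from 563 to 697. In Res_shFabp7 1, 54.0% of their peaks scored under 100, against 13.3% of all its peaks. 34 of the 226 scored 100 or more in all 6 libraries. Level is the mean over the 6 Sen and Res_shFabp7 libraries of CPM (tags per M tags in the tested regions, TMM-scaled). The median level was 20.8 CPM (11.5 to 83.9), against 57.3 CPM over all regions with a peak in these 6 libraries, 6.28% of which lay below the median of the 226.

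**Figure D1:**
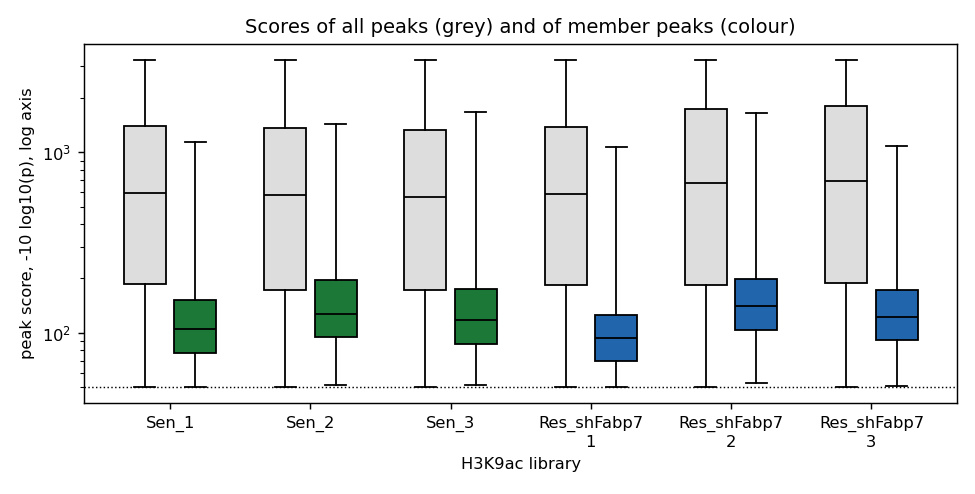
Peak scores (log axis, -10 times the log10 of the p-value) of all peaks in grey and of peaks at the 226 regions in colour, for each of the 6 H3K9ac libraries that chose them. Boxes span the quartiles with the median, whiskers the lowest and highest peak, and the dotted line is the lowest score of 50; medians are 93.9 to 141 at the regions and 563 to 697 over all peaks.

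How many regions met the rule depended on the lists. With the 11771 best peaks of each list, the length of the shortest, 42 regions met it, and 2 of the 226 were among them, in Nav1 (chr1:135509224-135511457) and in Clic6. With peaks of score 100 or more there were 228, of which 34 were among the 226. Without the third Res_Ctrl library 791 met it. That library alone kept out 564 regions, with a median of 91 tags and a median score of 95.7 there, 303 of them under 100. In all, 616 regions missed the rule because 1 Res or Res_Ctrl library had a peak and 284 because 1 Sen or Res_shFabp7 library lacked one.

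Just inside the rule were regions that a slightly higher score limit would have dropped. Pilrb1, a paired immunoglobulin-like receptor (chr5:137855821-137859156), scored 50.07 in Res_shFabp7 1. Glg1, a Golgi glycoprotein (chr8:111183978-111186739), scored 50.11 in Sen 1, and a region 1159 bases from Spint2, a protease inhibitor (chr7:29252746-29255171), scored 50.19 in Sen 1. Just outside, the 3 strongest were kept out by the third Res_Ctrl library. At Bicc1, an RNA-binding protein (chr10:71152433-71160731), that library had 85 tags and the Sen libraries 612, 1602 and 1975. In Oxr1, an oxidation resistance gene (chr15:41708467-41713043), it had 91 tags against 512, 1000 and 1269. Near Gm8127 (chr14:43276294-43279940) it had 360 against 399, 804 and 886. These tags are not scaled to depth: that library held 4.63 M H3K9ac tags and Sen 1 to 3 held 4.2, 10.2 and 11.5 M. Res_shFabp7 1 to 3, with 4.84, 7.19 and 5.86 M, had 193, 249 and 252 tags at Bicc1 and 159, 317 and 243 in Oxr1. Near Gm8127 they had 384, 524 and 513.

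The strongest region overlapped Clic6, a member of the chloride intracellular channel family (chr16:92497615-92501482), and came within 1 kb of an annotated outer end of the gene. The nearest start in the promoter table, which lacks some genes, was 20806 bases away. Whether the region covers the start of Clic6 was therefore not determined. The H3K9ac level of this region was 85.7, 102 and 110 CPM in Sen 1 to 3 and 69.6, 76.5 and 59.8 CPM in Res_shFabp7 1 to 3. All 3 Sen libraries were above all 3 knockdown libraries, and the lowest of its 6 scores, 1073, was far above that of the other regions named here. H3K27ac, which the rule did not use, was called there in 3 of 3 Sen libraries (244, 419 and 393 tags), 0 of 3 Res, 1 of 3 Res_Ctrl (47 tags) and 3 of 3 Res_shFabp7 libraries (251, 384 and 555 tags). A region without a peak has no deposited tag count.

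Next in level came 2 promoters. A region over the start of the predicted gene Gm26671, 14490 bases from Commd2 (chr3:57624726-57629859), had 47.4, 59.8 and 59.5 CPM in Sen and 59.4, 63.0 and 56.9 CPM in Res_shFabp7. The groups overlapped. Ugt2b34 encodes a UDP-glucuronosyltransferase, an enzyme that conjugates lipophilic compounds for export (chr5:86902738-86908110). It had 51.1, 63.4 and 58.1 CPM in Sen and 59.8, 52.7 and 48.6 CPM in Res_shFabp7, again overlapping. Its promoter is the one printed above with no CG.

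Other strong regions were higher in Sen. Acvr1b encodes an activin receptor (chr15:101181071-101185221), and its region had 58.2, 58.6 and 64.1 CPM in Sen against 30.0, 30.3 and 38.7 CPM in Res_shFabp7. Ogfod2, a predicted iron-dependent oxygenase (chr5:124110763-124114121, over its CG-rich promoter), had 66.5, 64.5 and 64.5 CPM in Sen against 12.8, 31.2 and 25.8 CPM. In both, every Sen library was above every knockdown library. Regions that completed the 10 strongest lay 40051 bases from Fbxo32, a ubiquitin ligase of muscle wasting, in Lpcat3, 26722 bases from Tcf7l2, a transcription factor of Wnt signalling, in Chmp4c, a subunit of the membrane-cutting ESCRT machinery, and 4381 bases from Selenof, a selenoprotein of the endoplasmic reticulum.

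Between the groups that share these regions, the level was on balance lower in the knockdown. In the fit over all 13717 regions with a peak in the 6 libraries, 84 of the 226 were lower and 11 higher in Res_shFabp7 than in Sen (edgeR's quasi-likelihood test, Benjamini-Hochberg adjusted p under 0.05). Over all tested regions 15.0% were lower and 15.8% higher. The median log2 difference was -0.36 at the 226 and 0.00 over all tested regions. The same 6 libraries helped to choose the regions, so these calls describe the chosen regions. All 226 had to have a peak in both groups, which leaves out those at which 1 group fell below the caller's limit. They also had to lack a peak in Res and Res_Ctrl, which share the resistant background of the knockdown. Their median level was 20.8 CPM, against 57.3 CPM over all tested regions. The part of the rule and of the level in this balance was not tested. Divided by called length in bases, 33 were lower (3.36% of all) and 4 higher (5.99% of all). With regions lacking a peak included 38 were lower (9.17% of all 19683) and 3 higher (13.3% of all).

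**Figure D2:**
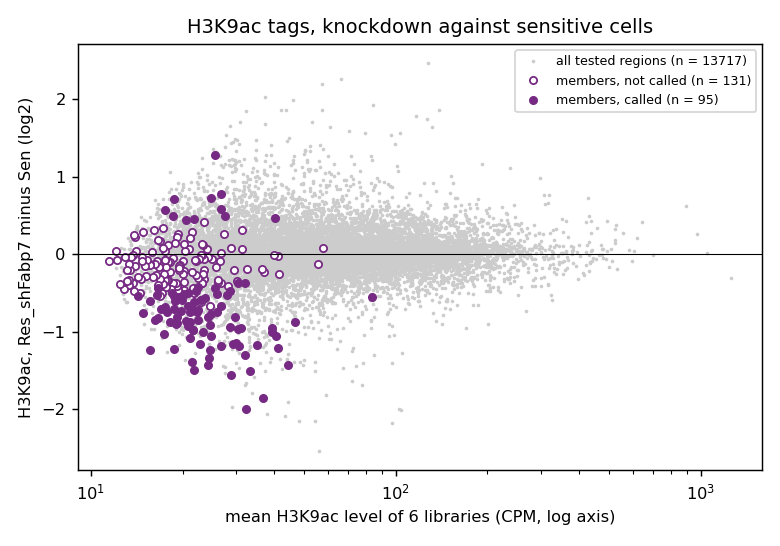
H3K9ac difference between Res_shFabp7 and Sen (log2, vertical axis) against the mean level (CPM, log axis) for all 13717 tested regions in grey and the 226 regions in purple, filled where called. The purple points lie at the weak end of the level axis, with 84 called below 0 and 11 above.

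No Res or Res_Ctrl library had an H3K9ac peak at these regions. The differences below are therefore from Sen, and none is a change from the control hairpin. Among promoters, Res_shFabp7 was furthest below Sen at Apob, the structural protein of lipoprotein particles (chr12:7977025-7979691). It had 53.3, 50.8 and 51.3 CPM in Sen and 10.4, 15.1 and 12.6 CPM in Res_shFabp7, a log2 difference of -2.00 ± 0.13 (SE, edgeR adjusted p = 2.85e-07). This p-value and the others of this H3K9ac comparison, here and below, come from libraries that helped to choose the regions. They describe the chosen regions only. Sema4a, a semaphorin (chr3:88454230-88457933), had 36.1, 43.1 and 49.0 CPM against 15.0, 12.7 and 16.6 CPM, a difference of -1.56 ± 0.15. Chst15, which sulfates chondroitin chains (chr7:132315224-132318028), had 43.7, 47.8 and 53.8 CPM against 20.2, 24.6 and 20.1 CPM, a difference of -1.17 ± 0.12. The groups did not overlap at any of these. Spaca7, a sperm acrosome gene (chr8:12571906-12574453), was lower in Res_shFabp7 than in Sen by 1.15 on the log2 scale and Ogfod2 by 1.44. Of the secreted liver-type proteins, Itih2, a heavy chain of the inter-alpha-trypsin inhibitor (chr2:10129649-10131613), was lower by 0.43 with an edgeR adjusted p of 0.0353. This call was lost when any of 5 libraries was left out (edgeR adjusted p 0.0535 to 0.131), and held only without the first knockdown library. Angptl8, a regulator of lipoprotein lipase whose start lies within Dock6 (chr9:21834512-21836775), was lower by 0.72. A promoter of the predicted gene Gm38646 within Ptprd, a receptor phosphatase (chr4:77309397-77311826), was lower by 0.75. Cobl, an actin nucleator (chr11:12408669-12412405), did not pass, at -0.67 ± 0.29 (edgeR adjusted p = 0.103); without Sen 1 it did (-0.91, edgeR adjusted p = 0.00921).

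Away from promoters, Res_shFabp7 was furthest below Sen near Slco2a1, a prostaglandin transporter (chr9:102992567-102997520), in Oxr1 (chr15:41667758-41671244) and 1620 bases from Nedd4l, a ubiquitin ligase. At Slco2a1 Sen had 52.0, 59.0 and 61.2 CPM and Res_shFabp7 17.8, 15.1 and 15.5 CPM, a log2 difference of -1.85 ± 0.11 (edgeR adjusted p = 1.38e-07). Oxr1 and Nedd4l differed by -1.51 ± 0.22 and -1.50 ± 0.15. Regions called higher in Res_shFabp7 than in Sen were fewer, and their differences were smaller. A region 99191 bases from Emp1, an epithelial membrane protein (chr6:135482364-135486002), had 12.8, 17.1 and 14.6 CPM in Sen and 36.8, 40.4 and 32.2 CPM in Res_shFabp7, a difference of 1.28 ± 0.15. All 3 knockdown libraries were above all Sen libraries there. Regions in Gas2 (0.77 ± 0.18), in Glg1 (0.72 ± 0.21), near Paqr8, a membrane progestin receptor (0.71 ± 0.19), and 47761 bases from Slc16a1, a lactate transporter (0.58 ± 0.17), were also higher in Res_shFabp7 than in Sen. The edgeR adjusted p of the Glg1 region, 0.0197, became 0.0864 without the first knockdown library and 0.0701 without the second. That of the Slc16a1 region, also 0.0197, became 0.0959 without Sen 3, 0.0598 without the second and 0.0584 without the third knockdown library.

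**Figure D3:**
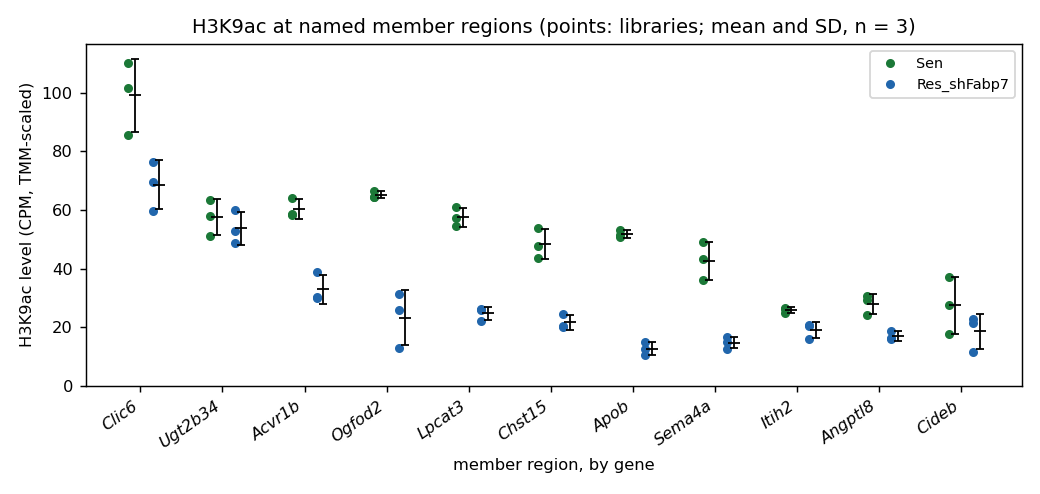
H3K9ac level (CPM, TMM-scaled) at 11 named regions, with a point for each of 3 Sen and 3 Res_shFabp7 libraries and bars for mean and SD. At Apob, Sema4a, Chst15, Lpcat3 and Ogfod2 the groups lie apart, and at Ugt2b34 they overlap (51.1 to 63.4 CPM in Sen, 48.6 to 59.8 CPM in Res_shFabp7).

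Genes of the 13 lists that fit the title were looked up within their outer ends and 1 kb around them. 140 of the 12397 protein-coding genes with an H3K9ac region there had 1 of the 226. Lists of fatty acid binding and uptake (0 of 12 genes with a region), fatty acid synthesis and oxidation (0 of 22), ferroptosis suppressors (0 of 24), the integrated stress response (0 of 24), epithelial genes (0 of 22), mesenchymal genes (0 of 19), lung and endoderm lineage (0 of 15) and markers of other cell types (0 of 4) held none. Single genes were found in the lists of lipid droplets (1 of 17, Cideb), ferroptosis drivers (1 of 18, Lpcat3), the circadian clock (1 of 20, Per2) and antigen presentation and interferon (1 of 28, Oasl1), and 2 among histone acetylation enzymes (2 of 29, Hdac8 and Hdac9).

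Lpcat3 builds polyunsaturated fatty acids into phospholipids, the substrate of lipid peroxidation. Its region lay inside the gene (chr6:124692323-124695657, 18188 bases from the nearest start) and was the seventh strongest. H3K9ac was 60.9, 54.5 and 57.2 CPM in Sen and 25.9, 26.2 and 22.0 CPM in Res_shFabp7, a log2 difference of -1.21 ± 0.10 (edgeR adjusted p = 1.73e-06). H3K27ac was called there in 3 of 3 Sen, 2 of 3 Res, 3 of 3 Res_Ctrl and 3 of 3 Res_shFabp7 libraries. So the region was shared in H3K9ac peak presence while the knockdown level was below every Sen library.

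Cideb, a lipid droplet protein, shares its region with Ltb4r2, a leukotriene receptor (chr14:55757170-55760514). H3K9ac was 17.7, 37.2 and 27.7 CPM in Sen and 22.6, 21.4 and 11.6 CPM in Res_shFabp7, and the groups overlapped (-0.61 ± 0.26, edgeR adjusted p = 0.0942; without Sen 1, 0.0139). H3K27ac was called in 3 Sen, 2 Res, 1 Res_Ctrl and 3 Res_shFabp7 libraries. Per2, a repressor of the circadian clock, held a region over the start of the predicted gene Gm35591 (chr1:91442239-91444416), with 24.1, 26.9 and 28.5 CPM in Sen and 13.5, 15.8 and 14.5 CPM in Res_shFabp7 (-0.87 ± 0.14, edgeR adjusted p = 0.000494). Its H3K27ac was called in all Sen, Res_Ctrl and Res_shFabp7 libraries and in 0 of 3 Res. Oasl1, an interferon-induced gene (0.15 ± 0.24), and the deacetylase genes Hdac8 (-0.09 ± 0.14) and Hdac9 (-0.06 ± 0.22) had H3K9ac levels whose groups overlapped, and none passed. The Hdac8 promoter (chrX:102504168-102505906) carried H3K27ac in 2 Res_shFabp7 libraries and no other.

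H3K27ac tells how the same sites stood in a mark the rule did not use. 225 of the 226 regions had an H3K27ac peak in at least 1 library, near the 98.6% of all H3K9ac regions. 170 had one in 9 or more libraries. 80, or 35.4%, had one in all 12, against 59.0% of all H3K9ac regions. The share with one was lowest in Res, at 51.9 ± 7.17%, and highest in Res_shFabp7, at 95.9 ± 3.58%, with Sen at 86.9 ± 9.39% and Res_Ctrl at 81.1 ± 4.97% (mean ± SD, n = 3). Res libraries, with 47.3 to 60.2%, lay below all others, of which the lowest was Res_Ctrl 2 with 75.7%. Over all H3K9ac regions the shares were 81.3% in Res, 93.2% in Res_shFabp7, 81.0% in Sen and 85.5% in Res_Ctrl. At the 226 the Res_Ctrl share was thus closer to that of Sen than to that of Res, although both lacked the H3K9ac peak by the rule. This order was not particular to these regions. Where the H3K9ac peak was in Res_shFabp7 alone, H3K27ac was at 53.1% in Res and 80.9% in Res_Ctrl, and where it was in all groups but Res, at 67.8% and 98.5%. Where it was in Sen alone, the shares were 35.3% in Res and 41.5% in Res_Ctrl. Sen 1, with 15856 H3K27ac peaks, had the lowest Sen share (76.1%), and Res_shFabp7 3, with 28934, the highest of all (99.1%).

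**Figure D4:**
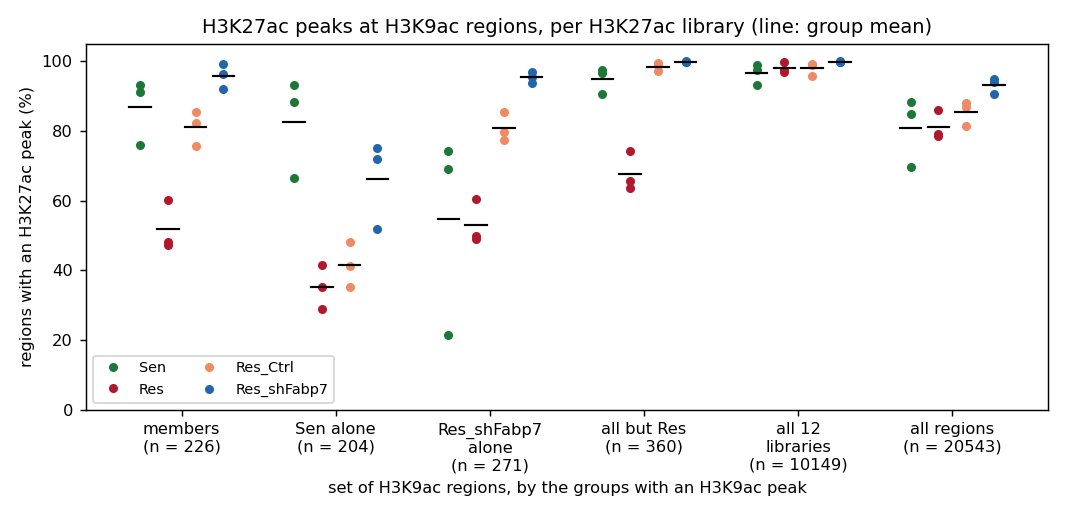
Share of regions with an H3K27ac peak (%) in each of the 12 H3K27ac libraries, for the 226 regions ("members") and 5 other sets of H3K9ac regions; points are libraries and lines group means. At the 226 the 3 Res libraries (47.3 to 60.2%) lie below the 9 others (75.7 to 99.1%).

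All-or-none calls in H3K27ac ran the same way. A peak in 3 of 3 Sen and 0 of 3 Res libraries was found at 55 of the 226, against 3.85% of all H3K9ac regions, and the reverse at 0 (3.24% of all). A peak in 3 of 3 Res_Ctrl and 0 of 3 Res libraries was found at 45 (5.22% of all). Between knockdown and control, 9 had a peak in 3 of 3 Res_shFabp7 and 0 of 3 Res_Ctrl libraries (1.89% of all). 39 had one in all libraries but those of Res (2.53% of all). The full pattern of the rule, in all Sen and Res_shFabp7 and no Res or Res_Ctrl library, was met in H3K27ac by 4 (0.219% of all): at the Apob promoter and inside Nav1, Gpr55 and Poc1b. At Apob the tags were 52, 220 and 251 in Sen and 40, 56 and 148 in Res_shFabp7. Nav1, a neuron navigator, had 70, 130 and 95 tags in Sen and 125, 106 and 123 in Res_shFabp7, and Poc1b, a centriole protein (chr10:99117055-99118933), had 64, 179 and 187 against 107, 172 and 269. At Gpr55, a lipid-sensing receptor (chr1:85952280-85954860), the wider H3K27ac region still held 117, 71 and 64 tags in the Res_Ctrl libraries beside the H3K9ac region. Gpr55, Nav1 and Poc1b were named after their values were seen.

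The share with H3K27ac was lower in every group at promoters than elsewhere. At the 35 promoters the share with a peak was 28.6 ± 7.56% in Res and 43.8 ± 7.19% in Res_Ctrl, against 61.0 ± 8.25% in Sen and 81.0 ± 12.9% in Res_shFabp7. Between genes (93 regions) the shares were 56.3% in Res, 89.2% in Res_Ctrl, 91.0% in Sen and 98.6% in Res_shFabp7, and inside genes (98 regions), in the same order, 56.1%, 86.7%, 92.2% and 98.6%. In all 3 kinds of place Res_Ctrl lay between Res and Sen, close to Sen outside promoters. Whether the groups differ in another way at promoters than elsewhere was not tested. The 34 regions that scored 100 or more in all 6 H3K9ac libraries had H3K27ac at 20.6 to 47.1% in Res and 82.4 to 85.3% in Res_Ctrl.

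Tag counts of H3K27ac could be compared at 82 of the 226, those whose overlapping H3K27ac region had a peak in all 12 libraries, and 4 of these were promoters. Their H3K27ac regions were wider than the H3K9ac ones, with a median of 4895 bases. An H3K27ac region that lacked a peak in any library was not tested. The counts below therefore leave out those present in some groups and absent from others. In the mean of Sen and Res_shFabp7 against the mean of Res and Res_Ctrl, 33 of the 82 were higher (11.8% of all 11679 tested regions) and 3 lower (14.5% of all), with a median log2 difference of 0.24 against 0.01 over all. In Sen against Res 40 were higher (17.3% of all) and 4 lower (20.5% of all), with a median of 0.39. In Res_shFabp7 against Res_Ctrl 1 was higher (0.437% of all) and 1 lower (1.02% of all), with a median of 0.13; at an unadjusted p under 0.05 there were 12 (6.37% of all) and 4 (8.73% of all). In that comparison the same replicate numbers paired the libraries, and with the replicate number as a block 5 were higher (1.70% of all) and 3 lower (3.28% of all). In Res_Ctrl against Res, added after the control peaks were seen, 20 were higher (17.4% of all) and 10 lower (21.6% of all), with a median of 0.08. The mean comparison holds the libraries of Sen against Res and of Res_shFabp7 against Res_Ctrl, and Res_Ctrl against Res shares libraries with all 3, so these counts do not support each other.

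By group mean, Res was the lowest at 39 of the 82 (32.9% of all tested regions), Res_Ctrl at 29 (25.6%), Res_shFabp7 at 9 (17.6%) and Sen at 5 (23.8%). Sen was the highest at 41 (27.7% of all), Res at 18 (34.8%), Res_shFabp7 at 13 (15.8%) and Res_Ctrl at 10 (21.7%). By sign alone, 61 of the 82 were above 0 in Sen against Res (50.8% of all) and 59 in Res_shFabp7 against Res_Ctrl (50.1% of all). 45 were above 0 in both and 7 below 0 in both. 16 were above 0 in the first alone and 14 in the second alone. The share of all tested regions with each pair of signs was not counted. Tags grow with the length called. The median called length at these regions was 2967 bases in Res, 3073 in Res_Ctrl, 3371 in Sen and 4140 in Res_shFabp7, and over all tested regions it was 2785, 2701, 2604 and 3202 in the same order. Divided by called length, the mean comparison had 0 higher (0.385% of all) and 1 lower (4.51% of all) by edgeR, and 26 of the 33 were above 0. In Sen against Res 17 were higher (5.61% of all) and 0 lower (1.39% of all), and of the 40 called by tags 39 were above 0, with a median of 0.42. In Res_shFabp7 against Res_Ctrl 0 were higher (0.00% of all) and 18 lower (15.8% of all).

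**Figure D5:**
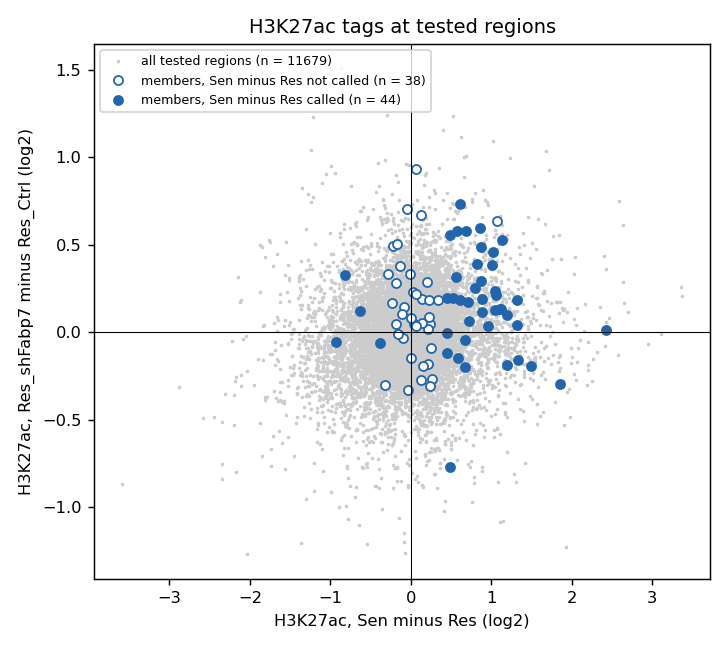
H3K27ac difference between Res_shFabp7 and Res_Ctrl (log2, vertical) against that between Sen and Res (log2, horizontal) for 11679 tested regions in grey and 82 of the 226 regions in blue, filled where called in Sen minus Res (44 regions). The blue points extend to the right, with 40 called above 0, and range from -0.77 to 0.93 on the vertical axis, where 2 were called.

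The largest H3K27ac change was 58557 bases from Ifngr1, which encodes a chain of the interferon gamma receptor (chr10:19529418-19533392). The levels were 178, 190 and 185 CPM in Sen, 23.7, 26.2 and 55.1 CPM in Res, 145, 137 and 170 CPM in Res_Ctrl and 148, 154 and 154 CPM in Res_shFabp7. Only the Res libraries were low. Sen exceeded Res by a log2 difference of 2.42 ± 0.23 (edgeR adjusted p = 3.47e-06), Res_Ctrl exceeded Res by 2.13 ± 0.23 and Res_shFabp7 differed from Res_Ctrl by 0.01 ± 0.21. Per called base the last of these was -0.42 (edgeR adjusted p = 0.0273). Whether this region acts on Ifngr1 was not measured. The region nearest Setbp1, 84711 bases away, was also lowest in Res, with 29.2, 28.6 and 16.8 CPM in Res against 61.9, 110 and 97.5 in Sen, 104, 138 and 120 in Res_Ctrl and 73.6, 103 and 115 CPM in Res_shFabp7. Near Spint2 Res had 134 ± 4.39 CPM and the other groups 249 ± 19.7 to 275 ± 36.8 CPM (mean ± SD, n = 3), although no Res peak reached the H3K9ac region itself. Per called base Res was not the lower one there, at -0.06 in Sen against Res and -0.21 in Res_Ctrl against Res.

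Pmepa1, an inhibitor of TGF-beta signalling, had its region 43667 bases away (chr2:173320398-173322661). There Res had 26.2, 20.8 and 23.5 CPM, Sen 42.4, 48.8 and 50.3, Res_Ctrl 52.1, 43.7 and 48.1 and Res_shFabp7 59.0, 71.6 and 57.7 CPM. Slc4a8, a bicarbonate transporter (chr15:100768905-100770513), had 17.9 ± 2.27 CPM in Res, 31.4 ± 11.3 in Sen, 36.8 ± 10.1 in Res_Ctrl and 55.6 ± 13.9 in Res_shFabp7. The difference between Sen and Res was 0.86 ± 0.28 (edgeR adjusted p = 0.0255), and it did not pass without Sen 2 (0.56, edgeR adjusted p = 0.161), without Sen 3 (0.0522) or without Res 1 or Res 2 (0.0881 and 0.0680). Per called base its mean comparison was -0.0150. In these regions Res_Ctrl was on the side of Sen.

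At other regions Res and Res_Ctrl were both low, as in the rule. Rapgef3, an exchange factor activated by cyclic AMP (chr15:97749520-97751966), had 62.4, 86.9 and 65.0 CPM in Sen, 32.3, 32.0 and 33.9 in Res, 25.4, 32.1 and 26.8 in Res_Ctrl and 35.8, 42.0 and 43.0 CPM in Res_shFabp7. Every Sen and knockdown library was above every Res and Res_Ctrl library. The mean comparison gave 0.83 ± 0.11 (edgeR adjusted p = 0.000104), and Res_shFabp7 against Res_Ctrl gave 0.53 ± 0.15 (edgeR adjusted p = 0.109, or 0.0420 with the replicate block). Per called base both turned, to -0.0349 (edgeR adjusted p = 0.929) and -0.49 (edgeR adjusted p = 0.0311). Slc6a6, the taurine transporter (chr6:91711583-91714409), had 37.0 ± 8.31 CPM in Res and 38.1 ± 10.2 CPM in Res_Ctrl, against 75.1 ± 6.38 CPM in Sen and 51.9 ± 6.28 CPM in Res_shFabp7 (mean ± SD, n = 3). Its difference between Res_shFabp7 and Res_Ctrl, 0.46 ± 0.20, did not pass (edgeR adjusted p = 0.289). The region 71714 bases from Zfp706, a zinc finger gene (chr15:36923757-36925313), had 46.1, 45.7 and 38.4 CPM in Sen, 32.3, 30.6 and 21.5 in Res, 24.0, 19.8 and 23.6 in Res_Ctrl and 36.5, 41.2 and 34.9 CPM in Res_shFabp7. It was the 1 region higher in Res_shFabp7 than in Res_Ctrl (0.73 ± 0.17, edgeR adjusted p = 0.0483), and the call was lost when any 1 of 10 libraries of the fit was left out (edgeR adjusted p 0.0549 to 0.205), all but Res 3 and Sen 1. Per called base the difference was -0.11 (edgeR adjusted p = 0.582). The 1 lower was 1275 bases from Pml, a nuclear body protein (chr9:58213048-58215904, -0.77, edgeR adjusted p = 0.00971), which was named after its value was seen; the count of lower regions fell to 0 without Res_Ctrl 2, Res_Ctrl 3 or Res_shFabp7 2.

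At others Sen alone was high. The region 17116 bases from Armc12 (chr17:28510104-28513745) had 137 ± 11.6 CPM in Sen and 55.1 ± 5.77 in Res, 57.9 ± 14.1 in Res_Ctrl and 59.7 ± 7.46 in Res_shFabp7. Slco2a1 had 137 ± 6.04 CPM in Sen and 74.2 ± 4.98, 72.6 ± 6.84 and 78.5 ± 7.33 in the others. Both were therefore called higher in the mean comparison (0.68 and 0.50) through Sen, and Res_shFabp7 differed from Res_Ctrl by 0.04 ± 0.16 and 0.12 ± 0.11. Per called base Armc12 was at -0.0315 in the mean comparison and at -0.54 (edgeR adjusted p = 0.0081) in Res_shFabp7 against Res_Ctrl.

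Further regions fell into none of these orders. Pdlim5, a protein of the actin cytoskeleton (chr3:142348157-142350630, 0.75 ± 0.19 in the mean comparison), had 64.3 ± 5.96 CPM in Res, 94.4 ± 35.1 in Res_Ctrl, 107 ± 5.53 in Res_shFabp7 and 159 ± 59.9 in Sen. Pak2, a kinase of the cytoskeleton (chr16:32067757-32069949, 0.68 ± 0.19), had 23.4 ± 4.82 CPM in Res, 31.4 ± 11.9 in Res_Ctrl, 43.7 ± 6.95 in Res_shFabp7 and 42.3 ± 13.1 in Sen. The Pak2 call was lost without Res 3 (edgeR adjusted p = 0.0543), without Res_shFabp7 3 (0.0537) and without Sen 3 (0.0606). 10 regions were instead lower in Res_Ctrl than in Res. In Lrrd1 (chr5:3867575-3871414) Res_Ctrl had 23.5 ± 5.64 CPM and Res 80.0 ± 10.1 CPM, beside 81.5 ± 33.5 in Sen and 44.0 ± 14.7 in Res_shFabp7 (Res_Ctrl against Res, -1.78 ± 0.31, edgeR adjusted p = 0.000628). In Efemp1, an extracellular matrix protein (chr11:28905639-28909129), Res was the highest, with 136 ± 19.7 CPM against 63.3 ± 15.7 in Res_Ctrl, 76.1 ± 7.25 in Sen and 79.0 ± 2.37 in Res_shFabp7. Lrrd1 and Efemp1 were named after their values were seen.

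The 3 regions lower in H3K27ac in the mean comparison went against the H3K9ac pattern. Their tags were summed over H3K27ac regions wider than the H3K9ac ones. At Cx3cl1 the widths were 15742 and 2002 bases, so most of that H3K27ac region lay outside the H3K9ac region. In Glg1 the levels were 28.9, 50.8 and 51.6 CPM in Sen, 85.4, 91.7 and 80.2 in Res, 67.8, 61.5 and 78.6 in Res_Ctrl and 62.4, 69.5 and 68.5 CPM in Res_shFabp7 (-0.49 ± 0.12, edgeR adjusted p = 0.00708). In Cx3cl1, the chemokine fractalkine (chr8:94777798-94779799), they were 268 ± 44.0, 337 ± 36.9, 446 ± 52.5 and 361 ± 20.3 CPM (-0.31 ± 0.09, edgeR adjusted p = 0.0182, and 0.0557 without Res_Ctrl 2). Near Selenof (chr3:144602058-144606004) they were 99.7 ± 3.53, 130 ± 8.95, 124 ± 14.7 and 119 ± 3.82 CPM (-0.22 ± 0.07, edgeR adjusted p = 0.0336). That call was lost when 1 of 8 libraries was left out, with edgeR adjusted p up to 0.0866. All 3 were lost when libraries were scaled within each chromosome, at -0.24, -0.05 and -0.14.

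Strong regions far from any gene closed the list. One lay 97537 bases from Shh, a secreted morphogen (chr5:28564638-28567984), with 38.3, 39.3 and 42.0 CPM of H3K9ac in Sen and 32.0, 36.6 and 33.4 CPM in Res_shFabp7, and H3K27ac was called in all libraries but the 3 of Res. The other lay 87318 bases from Lmo4, a transcriptional cofactor (chr3:144096918-144101212), with 38.5, 63.4 and 54.5 CPM in Sen and 26.8, 26.1 and 27.5 CPM in Res_shFabp7. Its H3K27ac was called in all 12 libraries, and the mean comparison gave a difference of 0.00 ± 0.08.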

How the data were processed

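H3K27ac and H3K9ac were measured by chromatin immunoprecipitation and single-end sequencing of 50 bases, with 53 to 158 M reads per sample per the labels. The submitters' processing notes name Bowtie 1.1.2, MACS 1.4.2 and the build mm10. The authors deposited 1 peak list per library, called in each library alone. Whether inputs served as controls and how duplicates were treated is not given in the sources used here, and the 4 inputs were not analysed here. Deposited tag counts are whole numbers per peak, not scaled to depth. The deposited score is -10 times the log10 of the caller's p-value. The deposited fold is the caller's ratio over its background and was used only to describe lists. Total reads per library were not in the lists, so tags in peaks stand in for depth, and they grow with called length.

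Peaks overlapping by 1 base or more were merged, and a region's tags are the sum over its peaks. Regions with a peak in all libraries of a fit were tested with edgeR 4.0.16 run in R 4.3.3, with libraries scaled by TMM and p-values adjusted over all regions (Benjamini-Hochberg, 0.05). H3K27ac used 1 fit over 12 libraries, H3K9ac 1 over 6. The difference in log2 is given with its standard error. On simulated data with 11679 regions the mean comparison recovered 82% of 1.5-fold and 100% of 2.0-fold changes, and Res_shFabp7 against Res_Ctrl 38% and 96%; on 13717 regions H3K9ac recovered 42% and 100%. Replicate numbers were checked by correlating deviations from group means. For Res_shFabp7 and Res_Ctrl every same-numbered pair was over 0.1 (0.189 to 0.422), and for Res_Ctrl and Res too (0.103 to 0.385). By that limit these numbers were taken to pair the libraries. For Sen and Res (0.073 to 0.276) and for H3K9ac (-0.1 to 0.17) they were not. No 2 lists of a group were identical, and each library counts as 1 replicate.

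Genes and promoters are from RefSeq on GRCm38.p6, with 21900 protein-coding genes by outer ends and 32851 promoter windows. Regions named are the 10 of highest level, 12 of highest level at promoters, up to 10 called each way in the H3K27ac mean comparison, those at list genes, 5 with no gene within 25 kb, 5 with the largest H3K9ac change each way, and those nearest the rule's limits. Regions, lists and tests were chosen with earlier results of these data known. Alternatives were DESeq2 1.42.0, another scaling (RLE), scaling within chromosomes, tags per called base, no filter on presence (a missing peak counted as 0), a score of 100, a join of at least 50% of the region, wider or narrower merging, equal peak numbers, a replicate block and leaving out each library.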

Additional observations from a re-analysis of the deposited data

How the results depend on the processing

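The number of regions was 42 with equal numbers of peaks per list, and 228 to 791 when 1 library was left out; the highest value was without Res_Ctrl 3. With a score of 100, an overlap of 100 bases or merging up to 500 bases it was 228, 226 and 222. The counts of calls in this section stand without the share over all tested regions, and show only how the calls moved. Without the filter on presence more of the 226 regions entered the test, and a missing peak counted as 0, so these counts are not out of 82. The mean comparison then gave 86 higher and 0 lower, and Sen against Res 93 higher. Res_shFabp7 against Res_Ctrl gave 4 higher, and Res_Ctrl against Res 71 higher and 4 lower. Per called base these were 0 and 1, 17 and 0, 0 and 18, and 7 and 0. With a score of 100 they were 16 and 0, 22 and 1 (with 1 and 1 for the knockdown), and 13 and 3. DESeq2 gave 2 higher in Res_shFabp7 against Res_Ctrl, RLE scaling 0, and scaling within chromosomes 0 there and 2 lower in Sen against Res. In H3K9ac, 3 higher and 38 lower were called without the filter, and 4 and 33 per called base.

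With the replicate block the mean comparison gave 35 higher and 5 lower, Sen against Res 41 and 5, Res_shFabp7 against Res_Ctrl 5 and 3, Res_Ctrl against Res 25 and 14, and H3K9ac 12 and 88. For Sen and Res and for H3K9ac the numbers were not taken to pair the libraries. There 4 of 6 and 3 of 6 libraries correlated best with their own number. For Res_Ctrl and Res it was also 4 of 6, so its pairing rests narrowly on the limit of 0.1 (lowest pair 0.103, against 0.073 for Sen and Res). Apart from Res_shFabp7 against Res_Ctrl, the block moved by over 1.5 times the 3 lower of the mean comparison and no other count.

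Leaving out 1 library gave 29 to 41 higher and 1 to 4 lower in the mean comparison (1 without Res_Ctrl 2), 30 to 45 and 3 to 6 in Sen against Res, and 0 to 3 and 0 to 2 in Res_shFabp7 against Res_Ctrl (3 and 2 without Sen 1, 0 higher without any 1 library of those 2 groups). It gave 19 to 26 and 5 to 17 in Res_Ctrl against Res (lower: 6 without Res_Ctrl 1 or Res_Ctrl 2, 5 without Res 2, 17 without Sen 1), and 6 to 9 and 61 to 100 in H3K9ac (higher: 6 without Res_shFabp7 2, 7 without Sen 3).

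Per called base, named regions turned at Rapgef3 (-0.0349), Slc4a8 (-0.0150), Armc12 (-0.0315) and Spint2 (-0.12) in the mean comparison, Spint2 in Sen against Res (-0.0623) and Res_Ctrl against Res (-0.21), Zfp706 (-0.11), Ifngr1 (-0.42), Rapgef3 (-0.49), Armc12 (-0.54) and Pdlim5 (-0.39) in Res_shFabp7 against Res_Ctrl and Chmp4c in H3K9ac (0.0242). The cause was not tested.

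Other ways of choosing the regions, added after the data were seen, gave these H3K27ac counts. Without the third Res_Ctrl list 374 of 790 merged regions could be tested, with 144 higher and 11 lower in the mean comparison and 4 and 2 in Res_shFabp7 against Res_Ctrl, but 161 and 17 in Res_Ctrl against Res. With equal peak numbers 23 of 42 could be tested, with 16 higher and 0 lower in the mean comparison and 14 and 1 in Res_Ctrl against Res.

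Depth limits what is shown: a region with no peak has no count, and tags in peaks are not total reads.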

Other observations

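Some of the promoters among the 226 regions carried H3K9ac with little H3K27ac. At 9 of the 35 promoters no H3K27ac peak was called in any Sen or Res library, against 2 of the 191 regions outside promoters. At 8 of the 9 none was called in Res_Ctrl either, and 7 of these 8 had one in at least 1 Res_shFabp7 library. They were weak in H3K9ac, with a median level of 15.6 CPM against 20.9 CPM at the other promoters. Among them were Hdac8, Pim2, a survival kinase, Haus7, a spindle subunit, Cadm4, a cell adhesion protein, and Hunk, a kinase, all named after their values were seen. The promoter of the predicted gene Gm5141 (chr13:62784779-62786499) was the single region with no H3K27ac peak in any library. 4 of the 9 lay on the X chromosome. X held 5 of the 35 promoters and 8 of the 226 regions, or 3.54%, against 1.94% of all H3K9ac regions. Over all H3K9ac regions at promoters, the share without H3K27ac in Sen and Res was not counted. Whether the pattern is particular to these promoters was not tested. The knockdown libraries had the most H3K27ac peaks (26391 ± 2967, mean ± SD, n = 3, against 20204 to 21348 in the other groups), and the part of peak number in this pattern was not tested.

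Chromosome 6 held 24 of the 226 regions, or 10.6%, against 4.85% of all H3K9ac regions. They were spread along it, at Lpcat3, Creb3l2, Foxp1, Emp1, Slc6a6, Adipor2, Atg7 and others. With libraries scaled within each chromosome, 30 regions over all chromosomes were higher in H3K27ac in the mean comparison and 33 in Sen against Res. Without it there were 33 and 40. These counts do not bear on the share of H3K9ac regions on chromosome 6, which comes from peak presence.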
